A study of Mus musculus with 12 samples.

Results

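The genes described here are 8 receptor and adaptor genes of the TREM family and of related paired receptors, read in Kupffer cells (liver macrophages) that were cultured from mice. They are Trem1, Trem2, Trem3, Treml2, Tarm1, Sirpb1a, Sirpa and Tyrobp, taken by name from the platform's gene table, and they are 8 of 10255 genes tested on the arrays. All cells came from male C57BL/6 mice aged 8 weeks and were read on 12 Illumina bead arrays, 2 for each of 6 groups. The M0 group had no named treatment, the LPS group received lipopolysaccharide at 10 ng/ml, the bacterial component that the labels call the M1 treatment, and the IL-4 group received interleukin 4 at 20 ng/ml, the M2 treatment. The vehicle group received DMSO, the SR3335 group a compound that lowers the activity of the nuclear receptor ROR-alpha (an inverse agonist), labelled 10 mM, and the SR1078 group a ROR agonist labelled 5 mM. The labels give 24 h for every group except M0, whose time is not given, so time and treatment cannot be told apart in comparisons with M0. The millimolar unit of both compounds is as labelled and could not be checked. The cells were a gradient-enriched fraction of collagenase-perfused liver, and no label ties the 2 arrays of any group to separate mice or cultures, so each p-value reflects the spread among these arrays, which may be technical.

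Paired receptors are families of immune cell surface proteins that share similar outer domains but carry opposite signals. Activating members such as TREM1, TREM2, mouse TREM3 and SIRP-beta have short tails and signal through the adaptor DAP12, the product of Tyrobp, whose tyrosine motif (ITAM) recruits the kinase SYK once phosphorylated. TARM1 pairs instead with the Fc receptor gamma chain. The inhibitory member SIRP-alpha has its own tyrosine motifs (ITIM), binds CD47 on other cells and recruits the phosphatases SHP-1 and SHP-2, which restrains phagocytosis. In macrophages TREM1 is known as an amplifier of inflammatory signalling and TREM2 as a receptor for lipids and lipoproteins that supports uptake of debris.

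RefSeq promoter windows (build GRCm38.p6) were held for 4 of the 8 genes, and the 250 bases before each transcription start are shown because these genes moved in different directions under the treatments described below. Trem1 lies at chr17:48232489-48232738 on the plus strand and Trem2 at chr17:48346151-48346400 on the plus strand. Tarm1 lies at chr7:3502625-3502874 and Sirpb1a at chr3:15426428-15426677, both on the minus strand. Each sequence runs 5′ to 3′ along the gene, and capitals mark matches to the motifs named after the sequences.
Trem1: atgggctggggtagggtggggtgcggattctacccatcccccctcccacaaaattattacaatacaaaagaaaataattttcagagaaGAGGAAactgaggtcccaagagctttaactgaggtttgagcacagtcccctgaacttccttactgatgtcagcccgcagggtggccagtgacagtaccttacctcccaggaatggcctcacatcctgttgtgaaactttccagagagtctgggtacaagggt
Tarm1: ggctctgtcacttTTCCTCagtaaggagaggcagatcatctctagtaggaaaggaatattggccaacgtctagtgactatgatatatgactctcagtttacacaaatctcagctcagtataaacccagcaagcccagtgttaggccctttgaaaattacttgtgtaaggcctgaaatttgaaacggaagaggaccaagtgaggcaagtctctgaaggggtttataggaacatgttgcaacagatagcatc
Trem2: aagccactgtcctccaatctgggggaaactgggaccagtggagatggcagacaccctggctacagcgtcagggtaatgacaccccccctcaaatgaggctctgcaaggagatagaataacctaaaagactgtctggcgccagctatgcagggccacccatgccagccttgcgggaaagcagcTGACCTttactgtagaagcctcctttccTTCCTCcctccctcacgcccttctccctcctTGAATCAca
Sirpb1a: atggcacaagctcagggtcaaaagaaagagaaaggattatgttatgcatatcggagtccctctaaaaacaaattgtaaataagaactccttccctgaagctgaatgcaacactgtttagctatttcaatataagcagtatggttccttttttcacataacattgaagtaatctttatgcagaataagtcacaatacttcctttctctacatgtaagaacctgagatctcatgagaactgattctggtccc
Both strands were searched for the AP-1 motif TGANTCA, the ETS motif GAGGAA, the STAT6 motif, the ROR core motif AGGTCA, the C/EBP motif TTGCNNAA and the kappa B motif. The Trem1 window held an ETS match from 162 to 157 bases before the start. The Trem2 window held an AP-1 match from 9 to 3 bases before the start, an ETS match on the opposite strand from 40 to 35 and a ROR core match on the opposite strand from 68 to 63. Tarm1 held an opposite-strand ETS match (237 to 232), the Sirpb1a window held none of these motifs, and no 2 matches overlapped. Among 32851 mouse windows of the same length, 23.3% held the ETS motif, 14% the ROR core motif, 9.56% the C/EBP motif, 7.25% the kappa B motif, 6.75% the AP-1 motif and 5.85% the STAT6 motif. These matches describe the letters of the windows and were not tested as binding sites.

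The 8 genes had 10 probes, all of which passed the filter, which asked for 2 or more arrays with a detection p under 0.05. The detection p compares a probe with negative control beads of its own array. Trem2, Trem3, Sirpa, Tyrobp and 1 Sirpb1a probe were detected on 12 of 12 arrays, the Tarm1, Treml2 and brighter Trem1 probes on 8 each, and the second Trem1 and second Sirpb1a probes on 5 each. Among the M0, LPS and IL-4 groups, the brighter Trem1 probe and Tarm1 were detected on both arrays only with LPS, where their signal was highest. Both were also detected on 2 of 2 arrays with SR3335 and with SR1078. With vehicle this Trem1 probe was detected on 2 arrays and Tarm1 on 1. The brightest probe stands for each gene below, and values are log2 signals after background correction and quantile normalization unless they are called deposited signals. SEs come from 1 moderated variance per gene shared over all 6 groups.

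The arrays formed 2 sets, M0 with LPS and IL-4, and vehicle with SR3335 and SR1078, and comparisons stay within a set. An array detected 11474 to 12623 of 25697 probes, and replicate arrays correlated across genes at r = 0.9916 to 0.997. Their standard deviation was 0.186 to 0.236 log2 in the first set and 0.138 to 0.147 in the second, so a shared variance may make SEs too small in the first set and too large in the second. Of 11 Kupffer cell markers with a probe, 9 were detected on 12 arrays, among them Clec4f, Vsig4 and Timd4, whereas Cd163 was detected on 3 and Cd5l on none. Of 12 neutrophil markers with a probe, Mpo, Ngp, Cxcr2, Mmp8, Retnlg and Prtn3 were detected on no array. S100a8 and Csf3r were detected on all 12, S100a9 and Ltf on 11 each, Camp on 7 and Elane on 6. Of 7 monocyte and dendritic cell markers with a probe, Ccr2, Flt3, Xcr1 and Cd209a were never detected. Plac8 was detected on 12 arrays, Zbtb46 on 6 and Ms4a4c on 1. Detected on all 12 arrays were 7 of 8 sinusoidal endothelial, 5 of 8 T and NK cell and 2 of 4 B cell markers. So were 3 of 8 hepatocyte and 2 of 7 stellate cell markers. In bulk RNA, fewer cells of a type and less RNA per cell cannot be told apart.

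LPS was compared with M0 to ask how the inflammatory stimulus changes these receptors. Trem3, Trem1 and Tarm1, all activating receptor genes, rose, Sirpa rose to a lesser extent, and Trem2 and Tyrobp fell. Thus 6 of 8 genes passed an adjusted p under 0.05, 4 higher and 2 lower, where 30.3% of all genes tested passed, 13.5% higher and 16.8% lower. The median log2 difference of the 8 was 0.71, beside -0.03 over all genes. Trem3 had deposited signals of 589 and 575 in M0 and 3737 and 4338 with LPS. Both LPS arrays lay far above both M0 arrays, and the normalized difference was 3.25 ± 0.08 log2 or 9.49-fold (SE, n = 2 arrays per group, limma adjusted p = 1.68e-07). This was the 12th highest of 10255 log2 differences.

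The brighter Trem1 probe had deposited signals of 176 and 183 in M0, where it was not detected on either array (detection p of 0.19 and 0.105), and 356 and 439 with LPS. With LPS the level was higher by at least 5.16-fold (adjusted p = 3.6e-06), with group means of 5.30 ± 0.13 and 8.13 ± 0.23 (SD, n = 2). The second Trem1 probe did not show this rise: its deposited signals were 188 and 226 in M0 and 182 and 187 with LPS, a difference of -0.42 ± 0.40 (adjusted p = 0.472 in the fit of every probe). It was detected on 0 of 2 LPS arrays. The Trem1 result thus rests on 1 of its 2 probes.

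Tarm1 was likewise undetected in M0, with deposited signals of 157 and 138, and reached 307 and 413 with LPS. The rise was at least 4.37-fold (adjusted p = 2.78e-05), with group means of 4.71 ± 0.13 and 7.89 ± 0.39 (SD, n = 2). No array of the M0 group reached the LPS arrays for any of these 3 genes. With 2 arrays per group this adds little to the calls, and the share of all genes so separated was not counted. The size of the Trem1 and Tarm1 rises, bounds included, depends on the background correction. Without it the log2 differences were 1.40 for Trem1 and 1.60 for Tarm1, and in the authors' processed values 1.23 and 1.36, each below the bound given above.

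Trem2 went the opposite way. Its deposited signals were 4294 and 4417 in M0 and 786 and 773 with LPS. The groups did not overlap, and Trem2 was 5.89-fold lower with LPS (log2 -2.56 ± 0.07, adjusted p = 2.99e-07), the 10th lowest log2 difference of 10255. All 23 alternative settings kept the calls of Trem1, Trem2, Trem3 and Tarm1 after LPS, with the smaller sizes of Trem1 and Tarm1 named above.

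**Figure D1:**
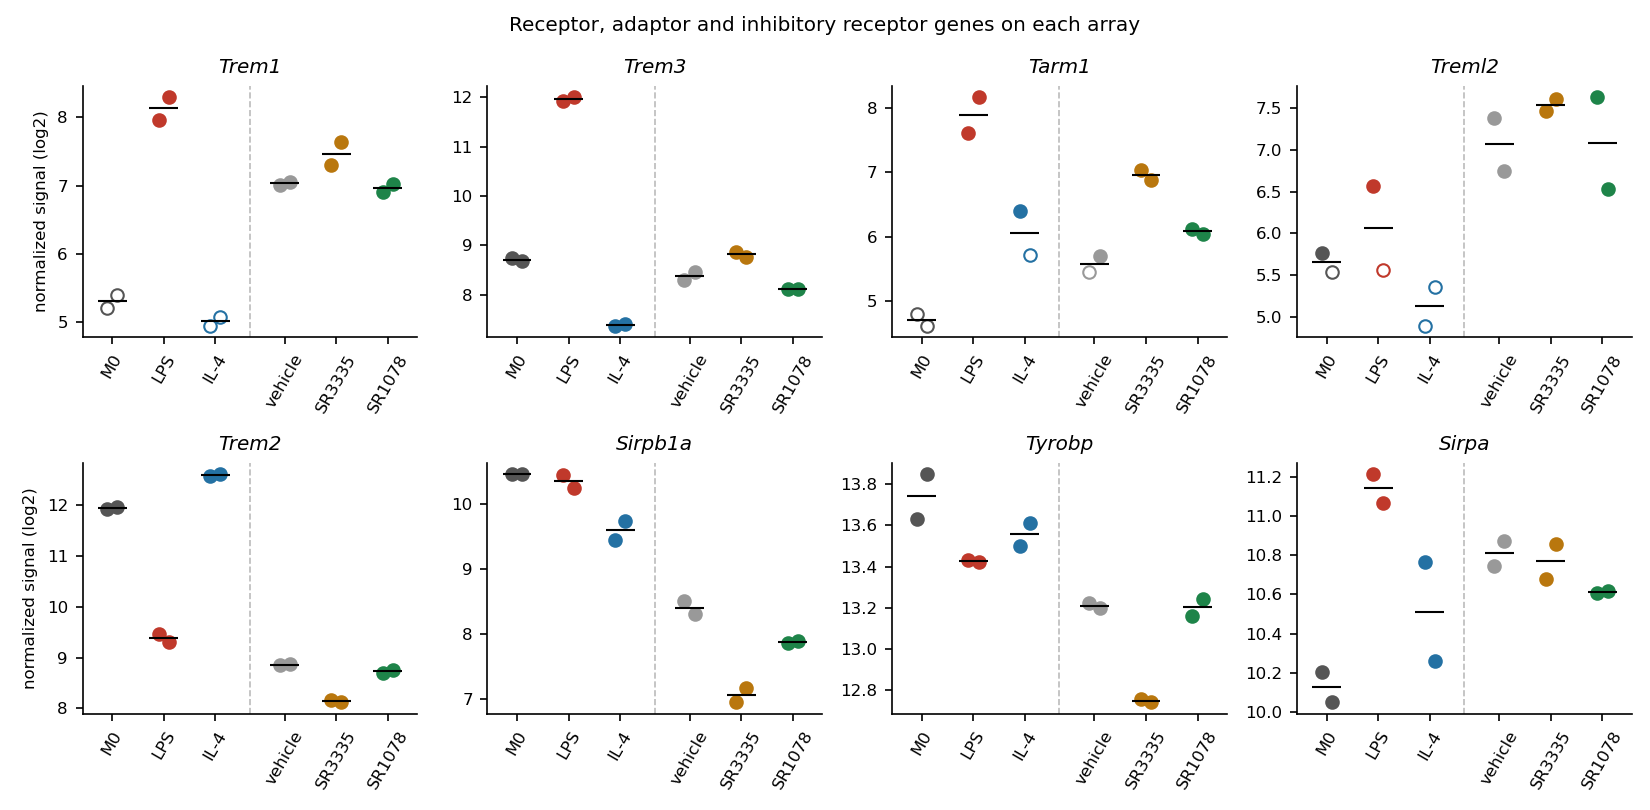
Normalized log2 signal (vertical axes, each with its own range) of the 8 genes on each of the 12 arrays, with groups along the horizontal axis, 2 points per group, a bar at the group mean, open points where the detection p was 0.05 or more, and a dashed line between the 2 array sets. Trem1, Trem3 and Tarm1 are highest with LPS, Trem2 is lowest with LPS and highest with IL-4 within its set, and Sirpb1a, Trem2 and Tyrobp are lowest with SR3335 within theirs.

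Signals of markers of other cells moved in the same comparison. The summed deposited signal above background of the 12 neutrophil markers was 3738 to 3811 in M0 and 8308 to 9844 with LPS. The number of these 12 detected did not rise, with 5 on each M0 array and 3 to 5 on the LPS arrays. S100a8, an alarmin gene among them, rose by 4.59 ± 0.15 log2. Of the 6 neutrophil markers tested, 3 rose and 2, Elane and Ltf, fell. The summed signal of the 7 monocyte and dendritic cell markers was 6892 to 7482 in M0 and 14181 to 15400 with LPS. Plac8, the only 1 of these 7 detected on any M0 or LPS array, rose by 1.24 ± 0.08. The summed signal of the Kupffer cell markers was 166376 to 169988 in M0 and 96271 to 105479 with LPS, with 5 of 10 tested markers lower and 2, Marco and Clec4f, higher. The part of these signals in the differences of Trem1, Trem3, Tarm1 and Trem2 was not tested.

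The type 2 stimulus IL-4 was set against the same M0 arrays. Here 4 of 8 genes passed, where 19.5% of all genes did, 8.43% higher and 11.1% lower. Trem2 and Tarm1 rose, and Trem3 and Sirpb1a fell. The median of the 8 was -0.24, beside -0.03 over all genes. Trem2 had deposited signals of 6582 and 6294 with IL-4, both above both M0 arrays, and rose by 0.65 ± 0.07 log2 or 1.57-fold (adjusted p = 0.000737), a call kept in all 23 settings. The summed Kupffer cell marker signal was 176722 to 190903 with IL-4. That of 8 sinusoidal endothelial markers was 6295 to 6361 in M0 and 8751 to 10806 with IL-4, with 4 of 8 higher and 1 lower, and its part in these differences was not tested. Trem3 had deposited signals of 326 and 300 with IL-4, both below both M0 arrays, and fell by 1.33 ± 0.08 log2 (adjusted p = 3.54e-05). Trem3 and Trem2 thus each moved in opposite directions after LPS and IL-4, and both comparisons use the same M0 arrays.

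Tarm1 had deposited signals of 236 and 194 with IL-4, and only the first array passed the detection limit. Against M0, where it was undetected, the rise was at least 1.23-fold (measured log2 difference 1.35 ± 0.24, adjusted p = 0.00591). With each array set normalized and fitted on its own this call was lost (1.24, adjusted p = 0.0635), and the log2 difference was 0.75 with an offset of 50, 0.65 without background correction and 0.50 in the authors' values. The brighter Trem1 probe had deposited signals of 170 and 171 with IL-4 and was detected on no array of either group, so no fold is given. Its measured difference was -0.29 (95% interval -0.62 to 0.03, adjusted p = 0.183). The second Trem1 probe was detected on 1 of 2 arrays in each of these groups. Its difference was -0.18 ± 0.40 (adjusted p = 0.797 in the fit of every probe).

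LPS and IL-4 were then set against each other directly. Of the 8 genes, 5 were higher with LPS and 1 lower, where 36.5% of all genes passed, 18.0% higher and 18.4% lower. The median of the 8 was 0.84, beside 0.01 over all genes. Trem3 was 23.9-fold higher with LPS (log2 4.58 ± 0.08, adjusted p = 1.93e-08), the 5th highest log2 difference of 10255. Trem2 was 9.27-fold lower (-3.21 ± 0.07, adjusted p = 3.5e-08), the 17th lowest. The brighter Trem1 probe, undetected with IL-4, was higher with LPS by at least 5.35-fold (adjusted p = 1.31e-06). Its log2 difference was 1.54 without background correction and 1.32 in the authors' values, each below that bound, which thus depends on the background correction. The second Trem1 probe did not show this rise, and was detected on 1 of 2 IL-4 arrays and 0 of 2 LPS arrays. Its difference was -0.24 ± 0.40 (adjusted p = 0.675 in the fit of every probe). Tarm1 was 3.56-fold higher (1.83 ± 0.24, adjusted p = 0.000452), and its log2 difference was 0.95 without background correction and 0.86 in the authors' values. Within this array set, the order of levels was LPS, M0, IL-4 for Trem3 and IL-4, M0, LPS for Trem2, and every step of both orders passed.

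Treml2, a TREM-like receptor gene, stayed near the detection limit in the first set. Its deposited signals were 197 and 188 in M0, 219 and 187 with LPS, and 167 and 182 with IL-4. It was detected on 1 of 2 arrays in M0 and with LPS and on none with IL-4. The LPS arrays overlapped the M0 arrays (log2 difference 0.41 ± 0.42, 95% interval -0.54 to 1.36, adjusted p = 0.501), and without LPS replicate 1 the sign turned (-0.10). Between LPS and IL-4 its difference of 0.94 did not pass (adjusted p = 0.113), but it passed without LPS replicate 2 (1.44, adjusted p = 0.0425). At this signal over background, differences of the size of that interval were not detectable.

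Sirpb1a, which encodes the activating receptor SIRP-beta, fell with IL-4, was lower with IL-4 than with LPS, and did not pass between LPS and M0. Its deposited signals were 1661 and 1683 in M0, 1426 and 1353 with LPS, and 949 and 1008 with IL-4. Both IL-4 arrays lay below all others of the set, with a fall of 0.86 ± 0.13 log2 from M0 (adjusted p = 0.0025) and a level 1.68-fold higher with LPS than with IL-4 (adjusted p = 0.00194). Both LPS signals were below both M0 signals, with a difference of -0.11 (95% interval -0.40 to 0.18, adjusted p = 0.546). The second, dimmer probe also fell with IL-4 (-0.93 ± 0.22, adjusted p = 0.0231 in the fit of every probe). Sirpb1b and Sirpb1c, close relatives that follow Sirpb1a in the RefSeq gene order, have no probe named here, and whether the Sirpb1a probes also bind their transcripts was not tested.

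Tyrobp, the gene of the shared adaptor DAP12, changed little. Its deposited signals were 12796 and 14840 in M0, 10091 and 10747 with LPS, and 11718 and 12002 with IL-4. The LPS arrays lay below the M0 arrays, a fall of 0.31 ± 0.09 log2 (1.24-fold lower, adjusted p = 0.0276). The call did not hold when M0 replicate 2 was left out (-0.20, adjusted p = 0.169), nor without LPS replicate 1 (-0.32, adjusted p = 0.0912), without LPS replicate 2 (-0.31, adjusted p = 0.0973), with no filter (adjusted p = 0.0517) and with each array set on its own (adjusted p = 0.127). With IL-4 the difference was -0.19 (95% interval -0.39 to 0.02, adjusted p = 0.178). NK cells also carry DAP12, and the summed signal of 8 T and NK cell markers was 4039 to 4414 in M0, 2304 to 2519 with LPS and 2860 to 2999 with IL-4, with Ncr1 and Gzma never detected. Their part in the Tyrobp difference was not tested.

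Of the other adaptor genes, Hcst passed with LPS and Fcer1g did not. Hcst, which encodes DAP10 and is next to Tyrobp on mouse chromosome 7, fell by 0.36 ± 0.11 log2 with LPS (adjusted p = 0.0356). Fcer1g, the gene of the Fc receptor gamma chain that pairs with TARM1, had a difference of 0.13 ± 0.06 with LPS (adjusted p = 0.169) and of -0.05 ± 0.06 with IL-4 (adjusted p = 0.608). Syk, the gene of the kinase recruited by the ITAM of DAP12, had differences of 0.49 ± 0.19 (adjusted p = 0.085) and 0.23 ± 0.19 (adjusted p = 0.435).

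Sirpa, the inhibitory receptor gene, rose with LPS. Its deposited signals were 1408 and 1280 in M0, 2353 and 2305 with LPS, and 2104 and 1391 with IL-4. The LPS arrays lay above all others of the set, 2.02-fold higher than M0 (log2 1.01 ± 0.15, adjusted p = 0.00141). The IL-4 arrays stood apart from each other, and their difference from M0 did not pass (0.39 ± 0.15, 95% interval 0.03 to 0.74, adjusted p = 0.115), and it was 0.64 without IL-4 replicate 2 (adjusted p = 0.00848), 0.13 without IL-4 replicate 1 (adjusted p = 0.503), and passed with a trend in the variance (adjusted p = 0.0424). Sirpa was 1.55-fold higher with LPS than with IL-4 (adjusted p = 0.0129), a call lost without LPS replicate 1 (0.55, adjusted p = 0.0703) and with each array set on its own (adjusted p = 0.0609). Without IL-4 replicate 2 that log2 difference was 0.38.

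Genes that work with SIRP-alpha, and other listed brakes on signalling, moved in several directions after LPS. Cd47, the gene of its ligand, fell by 0.77 ± 0.12 log2 (adjusted p = 0.00139), and Ptpn6, which encodes SHP-1, fell by 0.51 ± 0.09 (adjusted p = 0.00311). Skap2, an adaptor of SIRP-alpha signalling in macrophages, rose by 0.58 ± 0.11 (adjusted p = 0.00376). Dok3, a docking protein gene listed among the brakes, rose by 0.46 ± 0.07 (adjusted p = 0.00199). Of the 8 listed phosphatases and brakes, 4 rose and 1 fell with LPS, and 1 rose and 2 fell with IL-4, where 30.3% and 19.5% of all genes passed. Dok2 rose with IL-4 by 0.89 ± 0.08. The list's median was 0.19 with LPS and -0.20 with IL-4, beside -0.03 for both over all genes. With SR3335, where 4.63% of all genes passed, only Dok2 of these 8 did, with a fall of 0.59 ± 0.08.

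**Figure D2:**
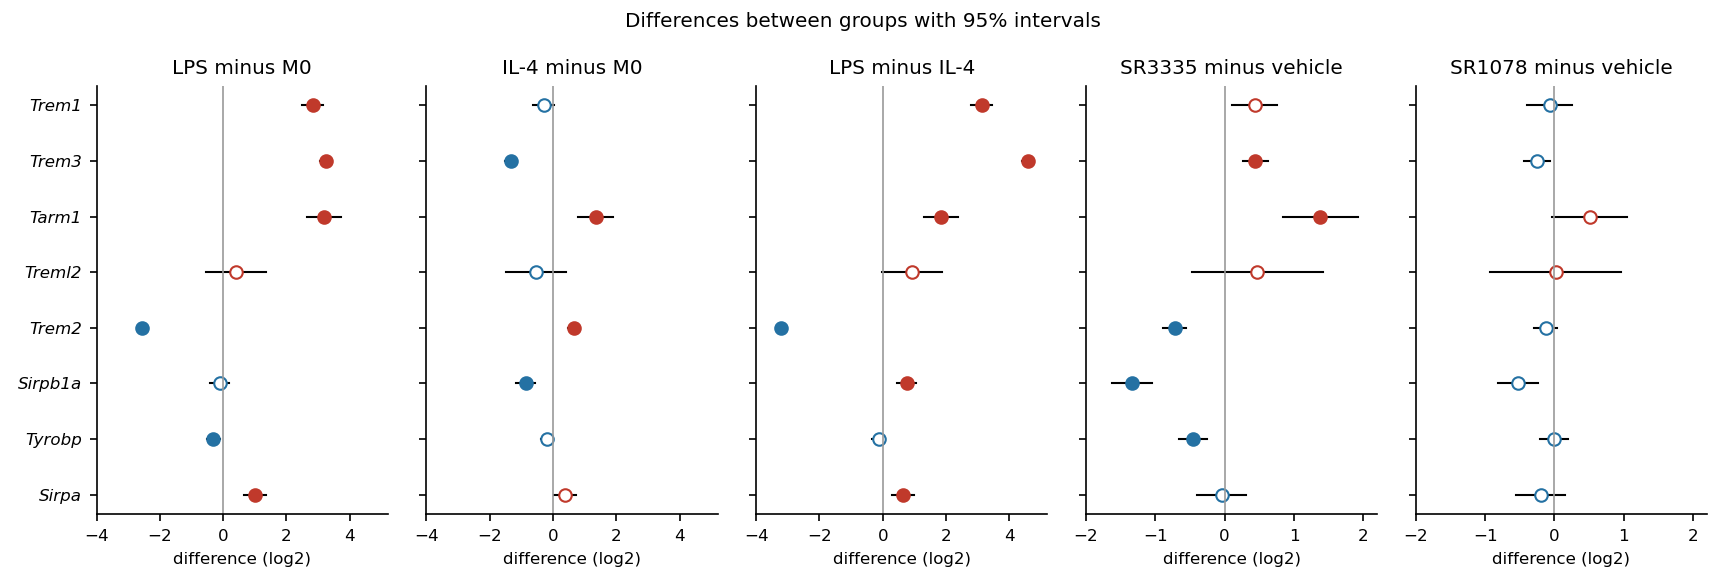
Log2 differences between groups (horizontal axes; the 2 right panels have a narrower range) for the 8 genes, with lines for 95% intervals from the fit and filled points where the adjusted p was under 0.05. Trem1, Trem3, Tarm1 and Sirpa are to the right with LPS and Trem2 to the left, and no point is filled for SR1078. Points against a group with no detected array (Trem1 and Tarm1 in M0, Trem1 and Treml2 with IL-4) are measured differences. The text gives lower bounds for the filled ones, and no fold for Trem1 between IL-4 and M0.

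Trem1, Trem3, Treml2 and Trem2 are neighbours in 1 gene cluster on mouse chromosome 17, with Treml4 and B430306N03Rik (synonym Treml6) between them and Treml1 at its end. Of these 7 cluster genes, 6 were tested, and Treml1 was not. The genes at the 2 ends of the tested stretch moved in opposite directions, since Trem1 and Trem3 rose with LPS and Trem2 fell. Treml4, which follows Trem3, rose by 0.88 ± 0.12 log2 with LPS (adjusted p = 0.000798) and fell by 1.31 ± 0.12 with IL-4 (adjusted p = 0.000237), the same directions as Trem3. B430306N03Rik, which precedes Trem2, rose by 0.64 ± 0.12 with LPS (adjusted p = 0.00471) and by 0.49 ± 0.12 with IL-4 (adjusted p = 0.025). Outside the cluster, Nfya had an LPS difference of 0.02 ± 0.14, Oard1 -0.27 ± 0.14 and A530064D06Rik, before Trem1, 0.61 ± 0.39, none of which passed. The neighbours were chosen by position after the values of the 8 genes were known.

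**Figure D3:**
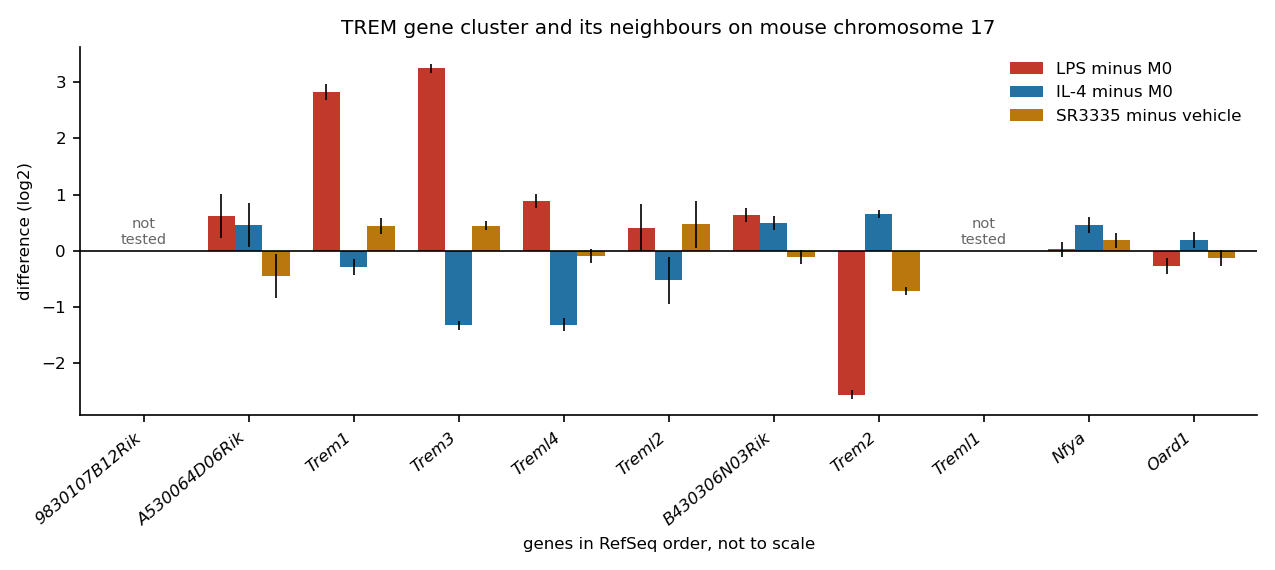
Log2 differences (vertical axis, bars with SE) of the TREM cluster genes and the 2 genes on each side, in RefSeq order and not to scale, for LPS minus M0, IL-4 minus M0 and SR3335 minus vehicle. Trem1, Trem3 and Treml4 have tall LPS bars above 0, and Trem2, further along the cluster, has its LPS bar below 0 at -2.56.

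SR3335 was set against vehicle to see which of these genes differ with the compound, and whether ROR-alpha has a part in the differences was not tested. Of the 8 genes, 5 passed, where 4.63% of all genes did, 2.09% higher and 2.55% lower. Sirpb1a, Trem2 and Tyrobp fell, and Tarm1 and Trem3 rose. The median of the 8 was 0.20, beside -0.01 over all genes. Sirpb1a had deposited signals of 418 and 413 with vehicle and 224 and 229 with SR3335. The groups did not overlap, and Sirpb1a was 2.54-fold lower (log2 -1.34 ± 0.13, adjusted p = 0.00144), the 3rd lowest log2 difference of 10255, with -0.86 without background correction and -0.89 in the authors' values. The dimmer Sirpb1a probe was undetected in both groups and adds nothing here. Trem2 had deposited signals of 502 and 557 with vehicle and 383 and 349 with SR3335, all lower with the compound, a fall of 0.72 ± 0.07 log2 (1.65-fold lower, adjusted p = 0.00188). These 2 calls held under all 23 alternative settings.

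The other SR3335 calls were less stable. Tyrobp had deposited signals of 9296 and 10101 with vehicle and 7215 and 6569 with SR3335, which did not overlap, and fell by 0.46 ± 0.09 log2 (adjusted p = 0.0234). Tarm1 had deposited signals of 124 and 142 with vehicle, where 1 of 2 arrays was detected, and 231 and 204 with SR3335, and rose by 1.38 ± 0.24 (adjusted p = 0.0157). Without background correction the Tarm1 difference was 0.58, and in the authors' values 0.69. Trem3 had deposited signals of 370 and 446 with vehicle and 548 and 480 with SR3335, and rose by 0.44 ± 0.08 (adjusted p = 0.0183).

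Each of these 3 calls was lost when certain single arrays were left out, which leaves 1 array in a group. The differences kept their sign. Without vehicle replicate 1, vehicle replicate 2, SR3335 replicate 1 or SR3335 replicate 2, Tyrobp gave -0.45, -0.47, -0.47 and -0.46 log2 with adjusted p = 0.164, 0.114, 0.138 and 0.126. Without the same arrays in turn, Tarm1 gave 1.25, 1.51, 1.30 and 1.46 with adjusted p = 0.141, 0.0623, 0.12 and 0.0741. Trem3 gave 0.36 without vehicle replicate 1 (adjusted p = 0.162), 0.40 without SR3335 replicate 1 (adjusted p = 0.145) and 0.49 without SR3335 replicate 2 (adjusted p = 0.0748), and did not pass with median centring (0.39, adjusted p = 0.074). Over all genes, the number past the threshold fell from 475 to between 76 and 143 when any of these 4 arrays was left out.

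Trem1 had deposited signals of 210 and 232 with vehicle and 260 and 279 with SR3335, which did not overlap, but its difference of 0.43 ± 0.14 did not pass (95% interval 0.11 to 0.76, adjusted p = 0.139). Sirpa gave -0.04 (95% interval -0.39 to 0.31) and Treml2 0.47 (95% interval -0.48 to 1.42), and neither passed. The same arrays differed in marker signal. The summed signal of the Kupffer cell markers was 112514 to 125637 with vehicle and 98408 to 108080 with SR3335, although 0 of 10 tested markers passed. That of the 8 T and NK cell markers was 3581 to 3721 with vehicle and 2898 to 3135 with SR3335, with 1 of 6 tested markers lower. The sum for neutrophil markers was 8023 to 9208 with vehicle and 8547 to 8972 with SR3335, which overlap. Their part in the falls of Sirpb1a, Trem2 and Tyrobp was not tested.

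SR1078 was compared with the same vehicle arrays. None of the 8 genes passed in limma, where 1.37% of all genes did (1.02% higher, 0.341% lower), and the median of the 8 was -0.10, beside 0.00 over all genes. Of the 8 genes, 2 (Sirpb1a and Trem3) had an unadjusted p under 0.05, as did 1542 of all 10255 genes. Sirpb1a had deposited signals of 370 and 349, both below both vehicle arrays, and a difference of -0.53 ± 0.13 (95% interval -0.81 to -0.24, adjusted p = 0.094). It passed with a trend in the variance (adjusted p = 0.0346), with array weights (adjusted p = 0.0233) and in the authors' processed values (-0.37, adjusted p = 0.0369). Trem3 had deposited signals of 418 and 388 and a difference of -0.25 (95% interval -0.43 to -0.07, adjusted p = 0.182). Trem2 differed by -0.13 (95% interval -0.30 to 0.04) and Tyrobp by -0.01 (95% interval -0.21 to 0.19). Tarm1, with deposited signals of 179 and 168, differed by 0.51 (95% interval -0.03 to 1.05), Trem1 by -0.06 (95% interval -0.39 to 0.26), Sirpa by -0.20 (95% interval -0.55 to 0.15) and Treml2 by 0.02 (95% interval -0.93 to 0.96). The labelled concentrations of SR3335 and SR1078 differ and their comparisons share the vehicle arrays, so the values are given side by side and the compounds were not compared with each other.

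Other TREM and paired receptor genes were examined as a list of 27, of which 16 were tested. With LPS 5 rose and 3 fell, with IL-4 2 rose and 8 fell, and between LPS and IL-4 8 were higher and 6 lower with LPS, where 30.3%, 19.5% and 36.5% of all genes passed. Pilra, an inhibitory receptor gene, rose by 1.23 ± 0.11 log2 with LPS and fell by 0.80 ± 0.11 with IL-4. Its activating partner gene Pilrb1 had the same directions, 0.92 ± 0.09 and -0.77 ± 0.09. Cd300a, an inhibitory receptor gene, fell by 1.82 ± 0.11 with LPS and by 0.67 ± 0.11 with IL-4. Clec5a, another DAP12 partner and undetected in M0, rose by at least 1.80-fold with LPS (adjusted p = 0.000804). Cd300lb, also undetected in M0, rose by at least 1.83-fold with IL-4 (adjusted p = 0.000985). With SR3335 none of the 16 passed, where 4.63% of all genes did. With SR1078, where 1.37% of all genes passed, only Klrk1, the gene of the NK cell receptor NKG2D, did, with a fall of 0.54 ± 0.09. The list's median was -0.08 with LPS and -0.28 with IL-4.

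The signalling genes behind the adaptors showed no common direction. Of 28 tested genes of the ITAM relay, 6 rose and 5 fell with LPS, and 4 rose and 6 fell with IL-4, with medians of 0.13 and -0.01. That is 39.3% and 35.7% of the list, where 30.3% and 19.5% of all genes passed. Malt1, which links these receptors to NF-kB, rose by 1.45 ± 0.18 with LPS, and Pik3cg, a phosphoinositide kinase gene, rose by 0.89 ± 0.11 with LPS and fell by 0.74 ± 0.11 with IL-4. Plcg2, a phospholipase gene that acts after SYK, fell by 0.51 ± 0.09 with LPS and by 0.29 ± 0.09 with IL-4. Malt1 was the only gene of the 28 to pass with SR3335 (0.94 ± 0.18, adjusted p = 0.0242), where 4.63% of all genes passed. Of 6 tested genes of reported ligands, 3 fell with LPS and none rose, where 16.8% of all genes fell and 13.5% rose. They were Cd47, Pglyrp1, a reported ligand of TREM1, by 0.71 ± 0.18, and Lgals3 by 0.46 ± 0.09. Apoe, the gene of a TREM2 ligand, had a difference of -0.25 ± 0.10 (adjusted p = 0.077). Adam17, a protease that sheds TREM2 from the cell surface, fell by 0.72 ± 0.12 with LPS and by 0.83 ± 0.12 with IL-4.

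Of 16 tested genes reported to accompany TREM2 in lipid-laden macrophages, 7 fell and 2 rose with LPS, with a median of -0.22, where 16.8% of all genes fell and 13.5% rose. Axl, a receptor for apoptotic cells, fell by 1.27 ± 0.08, Lpl, the gene of lipoprotein lipase, by 1.18 ± 0.09, Lipa, the gene of the lysosomal acid lipase, by 0.93 ± 0.20 and Gpnmb by 0.73 ± 0.08. Cst7 and Ctsl rose, by 1.28 ± 0.10 and 0.83 ± 0.10. With IL-4, 4 rose and none fell, with a median of 0.07, where 8.43% of all genes rose and 11.1% fell. Itgax, undetected in M0, rose by at least 1.81-fold (adjusted p = 0.000385) and the chemokine gene Ccl6 rose by 1.05 ± 0.12. With SR3335, Lpl fell by 0.77 ± 0.09 (adjusted p = 0.00241) and Ccl6 by 0.97 ± 0.12 (adjusted p = 0.0037). The other 14 did not pass, where 4.63% of all genes did.

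**Figure D4:**
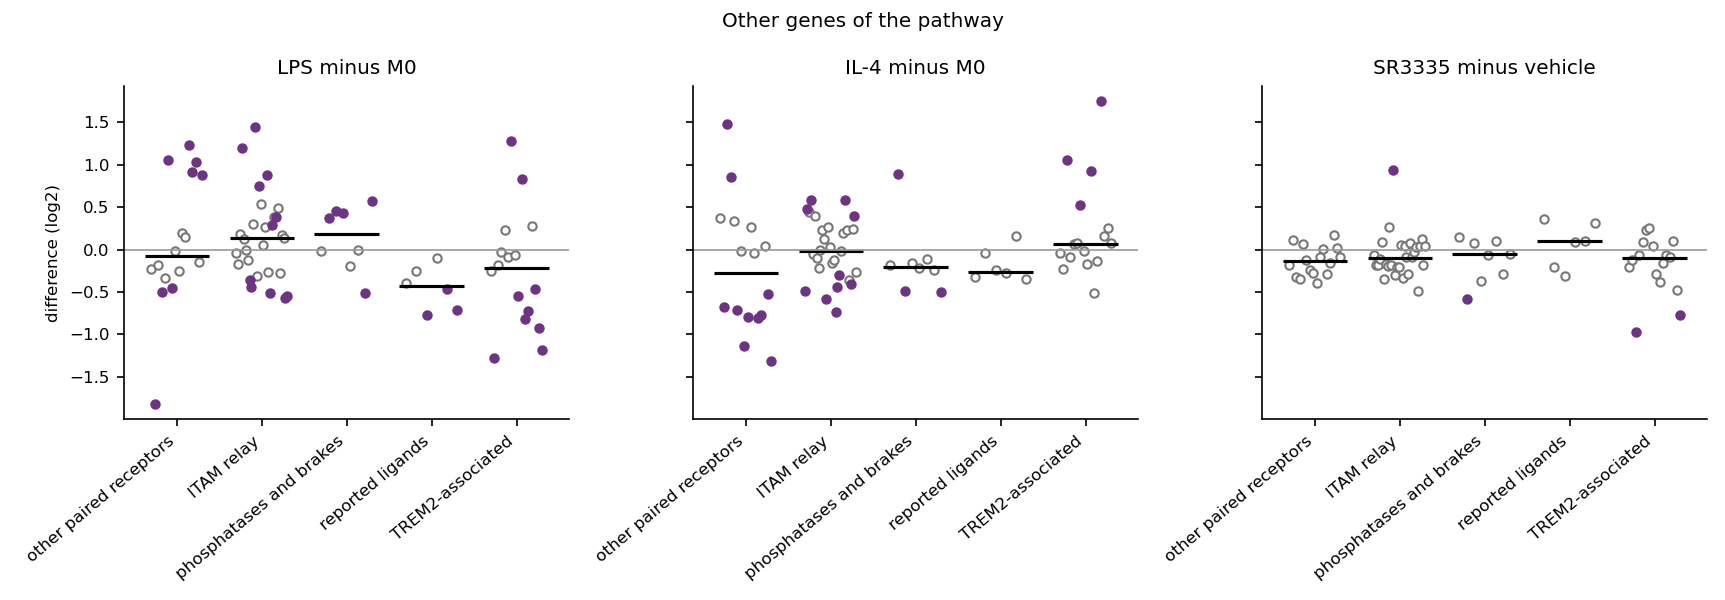
Log2 differences (vertical axis) of the tested genes of 5 lists, 1 point per gene, filled where the adjusted p was under 0.05, with a bar at each list's median. The paired receptor and TREM2-associated lists spread over more than 2 log2 units with LPS and less with SR3335, where the filled points are Malt1 at 0.94, Dok2 at -0.59, Lpl at -0.77 and Ccl6 at -0.97.

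The genes most like each member were found from log2 values centred within each array set, by Pearson correlation over 12 arrays, a measure that the large LPS and IL-4 differences dominate and that is given as a description. Trem3 was closest to Cxcl10 (r = 0.998), Clec4e (r = 0.996) and Vnn3 (r = 0.995). Clec4e, a C-type lectin receptor gene, differed by 2.55 with LPS, -1.06 with IL-4 and 0.57 with SR3335. Trem1 was closest to Dtx2 (r = 0.995), Pdpn (r = 0.992) and Plekhg2 (r = 0.991). Trem2 was closest to Vsig4 (r = 0.988), C1qb (r = 0.988) and Pparg (r = 0.987). Pparg, a lipid-sensing nuclear receptor gene, differed by -2.58 with LPS, 0.41 with IL-4 and -1.16 with SR3335. Sirpb1a was closest to Klra2 (r = 0.970), a gene of the Ly49 receptor family, which differed by -0.04 with LPS, -0.97 with IL-4 and -1.01 with SR3335. The highest correlations were 0.974 for Tarm1 (Prokr1), 0.978 for Sirpa (Mx1) and 0.966 for Tyrobp (Lamtor4).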

How the data were processed

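RNA of 12 Kupffer cell samples was measured on bead arrays with 25697 probes. The bead signals are intensity values deposited without normalization between arrays, made with GenomeStudio 2011.1 per the submitters' processing notes. A detection p-value stands beside each signal, per the file headers. A second deposited table holds log2 values: quantile normalization of the signals within each of the 2 array sets gave them to within 0.02 log2 for 25667 probes, and the other 30 include no probe of the 8 genes.

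The analysis used R 4.3.3 with limma 3.58.1: normexp correction with control levels inferred from the detection p, an offset of 16 and quantile normalization over 12 arrays. The filter kept 13678 probes with a detection p under 0.05 on 2 or more arrays, and the probe with the highest mean stood for a gene, which left 10255 genes, 9430 with a symbol. Of the probes, 23962 matched RefSeq gene identifiers and 1719 had no symbol. The fit had 1 mean per group, 6 residual degrees of freedom and Benjamini-Hochberg adjustment over all genes, for 5 comparisons. A p-value in the text comes from this fit. Where neither array of a group detected a probe, the fold is a lower bound against the higher of that array's dimmest detected signal and the probe's own, after this background correction. The code was first tested on simulated data. The number of arrays limits precision.

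Named were the 8 genes, members of listed pathway genes with large changes or a direct role, cell type markers, and the 3 genes most like each. These genes and lists were chosen with earlier results of these data known. Alternatives changed background correction, offset, scaling, filter, probes, variance model, weights, array sets and replicate block, used the authors' values, or left out each array. Figures were drawn in Python 3.11.15 (pandas 2.3.3, matplotlib 3.10.9).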

Additional observations from a re-analysis of the deposited data

How the results depend on the processing

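Of 920 recomputed differences of the 8 genes, 886 kept their direction and their side of the threshold, 20 lost a call, 6 gained one and 8, none of them called, changed sign. The cause of these changes was not tested. Leaving out an array outside a comparison left the difference itself as it was, so only the call could change. The same held for another filter, a variance trend, array weights, the replicate block and the fit of every probe. Trem1 with SR1078 turned to 0.012 under median centring. Leaving out single arrays gave ranges across 0 for Treml2 with LPS (-0.096 to 0.92) and with SR1078 (-0.53 to 0.56), Sirpa with SR3335 (-0.13 to 0.047) and Tyrobp with SR1078 (-0.051 to 0.033). Where 1 array of a group was left, it was assumed to vary like the other groups.

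Counts over all genes moved more. With each array set on its own, LPS against M0 gave 1918 genes (3107 as reported), IL-4 against M0 694 (2002) and LPS against IL-4 2461 (3739), and array weights gave 978 for IL-4 against M0. SR3335 gave 730 with no background correction, 730 with a variance trend, 948 in the authors' values, 307 with no filter and 1139 with array weights (475 as reported). SR1078 gave 369 with no background correction, 253 with an offset of 50, 519 in the authors' values, 80 with no filter, 360 with a variance trend and 620 with array weights (140 as reported). In the authors' values, with the trend and with the weights, 1 of the 8 genes, Sirpb1a, passed with SR1078.

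Leaving out single arrays gave 1064 to 2667 genes for IL-4 against M0 (1064 without M0 replicate 1, 1143 without M0 replicate 2, 1330 without IL-4 replicate 1), 76 to 664 for SR3335 (lowest without vehicle replicate 1, highest without either IL-4 array) and 5 to 255 for SR1078 (5 without either vehicle array, 6 without SR1078 replicate 1, 8 without SR1078 replicate 2, 84 without either SR3335 array, 255 without either IL-4 array), and 2 to 5 of the 8 genes for SR3335. Median centring moved the median of all genes to -0.132 log2 with LPS and the share of calls that were higher from 44.4% to 26.5%, from 43.2% to 32.2% for IL-4 against M0 and from 49.5% to 37.6% for LPS against IL-4. For SR1078 that share was 75%, and 64% in the authors' values, 63.1% with the trend and 61.8% with weights.

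Samples with the same replicate number did not deviate together (r of -0.0377 to 0.0961 across genes for 15 pairs of groups). The replicate block gave 91 genes for SR1078 and changed no call of the 8 genes.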

Other observations

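The M0 and vehicle groups lie in different array sets, so their levels stand side by side here without a comparison, and treatment, time and array set cannot be told apart. Trem2 had deposited signals of 4294 and 4417 in M0 and 502 and 557 with vehicle, and Sirpb1a 1661 and 1683 in M0 and 418 and 413 with vehicle. The brighter Trem1 probe was undetected in M0 (176 and 183) and detected with vehicle (210 and 232), in a set whose background signal was 94.4 to 105 against 156 to 164 in the first. Treml2 was detected on 6 of 6 arrays of the vehicle, SR3335 and SR1078 groups and on 2 of 6 arrays of the M0, LPS and IL-4 groups.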
